A study of Mus musculus with 6 samples.

Results

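The ubiquitin-specific protease genes were taken as every gene whose symbol on the array platform is USP followed by a digit, in any case, with USP18 left out. The rule found 47 genes on 55 probes, out of 17742 named genes on an array of 26423 probes, and 7 of the 47 had more than 1 probe. RNA came from BV2 cells, a single immortalised line of mouse microglia, the resident immune cells of the brain, which had or had not been exposed for 1 h to the purine base adenine. The groups were untreated control cells, cells given a lower adenine dose and cells given a higher dose, with 2 single-colour arrays each and 6 arrays in all. All cells were grown in the same serum-containing medium. Sample titles and treatment protocol give the doses as 20 and 80 µM, whereas the sample characteristics give 80 and 250 µM, so only their order is used. The design text describes separate cultures, but the titles do not tie each treated array to one, and p-values measure only the spread between these arrays.

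Ubiquitin is a small protein that is joined to other proteins in chains and marks them for degradation by the proteasome, for sorting at membranes or for assembly of signalling complexes. Ubiquitin-specific proteases (USPs) form the largest family of deubiquitinases, cysteine proteases that cut ubiquitin off again, and individual members act on histones, p53 and its regulators, receptors on endosomes, and signalling proteins of the NF-kB and interferon pathways. In microglia and other macrophages, several of them are known for limiting or prolonging inflammatory signalling. A few genes that carry the name lack protease activity, and Usp6nl encodes a GTPase-activating protein for Rab5 that takes its name from sequence shared with human USP6.

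Values are spot intensities in arbitrary units, quantile-normalised between arrays, and differences are log2 changes ± SE from limma with Benjamini-Hochberg adjustment over all probes. A change was called at an adjusted p under 0.05, and a gene stands by its brightest probe. A gene or probe said to be at a signed value has that log2 change. The deposited array medians ran between 125 and 170 units and precision was limited by having 2 arrays a group. The microglial label was checked against 11 markers, of which 9 were measured: as deposited, Cd68 gave 29446 to 65484 units and Csf1r 8183 to 13068 units on the 6 arrays. The surface markers Cx3cr1, at 79 to 126 units, and Tmem119, at 187 to 319 units, were dim, and Tyrobp and P2ry12 were not analysed here. At the higher dose the microglial markers Aif1 (log2 change 2.07 ± 0.16, adjusted p = 0.0167) and Itgam (0.77 ± 0.16, adjusted p = 0.0435) were higher than in control. The other 7 measured markers were not called: Trem2, Cd68 and Spi1 were at 1.14, 0.64 and 0.35, and Tmem119, Csf1r, Ptprc and Cx3cr1 at −0.49, −0.48, −0.14 and −0.13. For Tmem119 and Csf1r both higher-dose arrays read below both control arrays. Of 19 measured markers of astrocytes, neurons, oligodendrocytes, fibroblasts and endothelium, 0 were called in that comparison by limma and 5 had an unadjusted p under 0.05; between the doses 1 was called lower, the endothelial receptor Kdr (adjusted p = 0.0473). On bulk RNA, a lower level in every cell and a loss in some of the cells cannot be told apart.

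At the higher dose, most USP transcripts were less abundant than in control cells. Of the 47 genes, 39 had a negative log2 change (83.0%, against 51.5% of all named genes), and the median change was −0.44, against −0.02 over all named genes. On both higher-dose arrays 35 of the 47 read below both control arrays, which holds for 32.9% of named genes; 3 read above both, which holds for 30.1%. The calls were far fewer: 3 genes fell (Usp14, Usp9x and Usp6nl) and 0 rose, where 5.39% of all named genes were called lower and 6.37% higher. By limma's unadjusted p under 0.05, 21 USP genes were lower and 1 was higher, against 16.5% and 14.7% of named genes. Changes of single genes spanned −1.06 (Usp14) to 1.02 (Usp51).

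**Figure D1:**
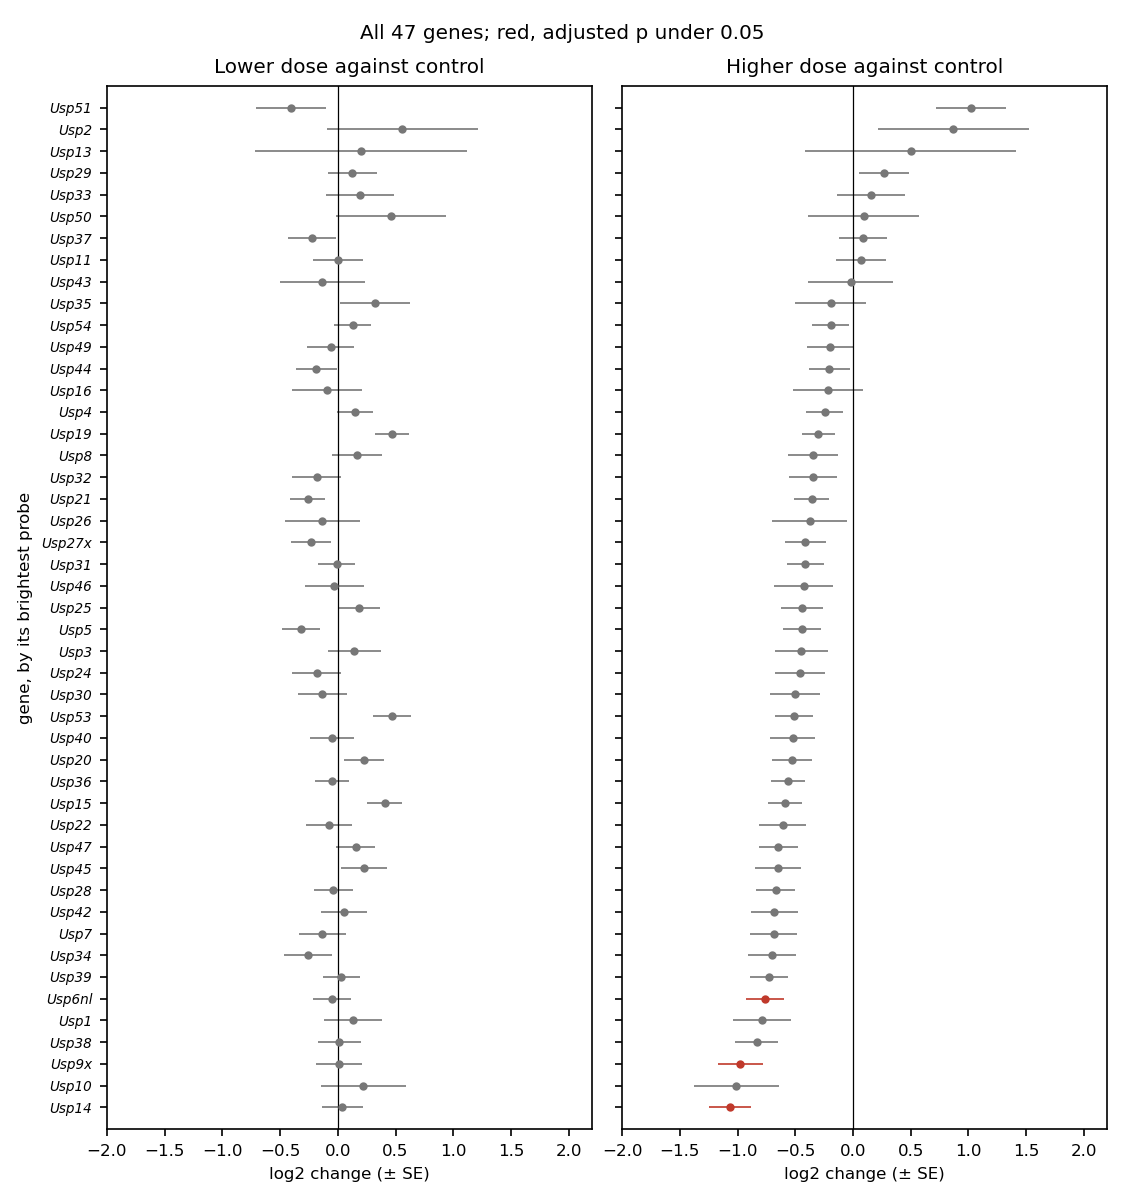
Log2 change ± SE of each of the 47 USP genes by its brightest probe, lower dose against control on the left and higher dose against control on the right, in the order of the higher-dose change. At the higher dose 39 points lie below 0 and the 3 red ones have an adjusted p under 0.05; at the lower dose the points lie on both sides of 0 and none is red. Usp2, plotted near the top, lay at the floor.

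The negative changes lay mostly among the brighter probes. Among the 39 USP genes above the median probe, 36 had a negative change at the higher dose, the median was −0.50, and 33 read below both control arrays; of named genes above the median probe, 40% did so. Of the 8 dimmer genes, 3 were negative and their median was 0.08. Taken array by array, the median USP gene stood at −0.46 and −0.41 on the higher-dose arrays, at 0.02 and −0.02 on the lower-dose arrays and at 0.02 and −0.02 on the control arrays, relative to the control mean. The higher-dose arrays were thus apart from the other 4. The same medians over all named genes lay between −0.03 and 0.03 on every array.

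Few calls held with an array left out. In the higher-dose comparison with control, leaving out a control or higher-dose array removed nearly all calls over named genes too. Fewer named genes were also called without a lower-dose array. With 1 array left out, the USP median ran between −0.46 and −0.40. With only probes above the median tested, 19 of 39 USP genes passed, all of them lower, against 22.6% of the named genes tested there.

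Between the doses, 11 USP genes were lower and 1 was higher at the higher dose, and the background is 7.5% of named genes lower and 7.74% higher. The median log2 change was −0.45 and 40 of 47 genes were negative. Both higher-dose arrays read below both lower-dose arrays for 29 genes, against 32.2% of named genes. This comparison shares its higher-dose arrays with the one against control, so they are not separate evidence, and each gene's own values are given for both. Its calls depended on having all 6 arrays, as did nearly all calls over named genes. With 1 array left out, the USP median ran between −0.50 and −0.44. With only its own 4 arrays fitted, 0 USP genes were called, where 0.0169% of named genes were called lower. With only probes above the median tested, 22 of 39 were called, all lower, against 24.4% of the named genes tested there.

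**Figure D2:**
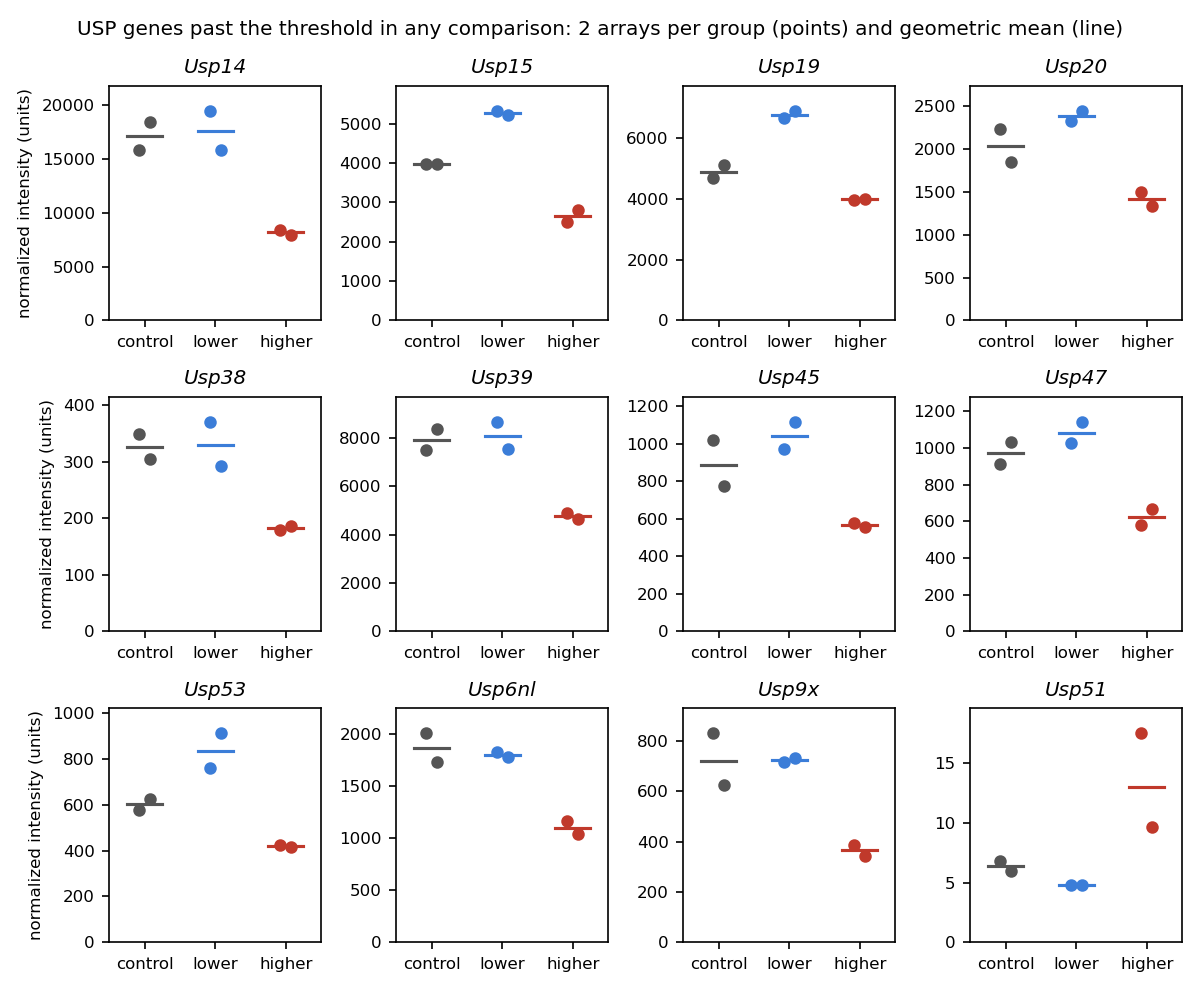
Normalised intensity on each array (points, units) and geometric mean (line) for the 12 USP genes called in any comparison, by adenine dose. In 11 panels both higher-dose points lie below the other 4 points, and in the Usp51 panel, which ends below 20 units, both lie above.

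Usp14 is the protease that docks on the proteasome and trims ubiquitin chains from proteins held there. Its brightest probe read 15881 and 18443 units in control cells, 19465 and 15892 units at the lower dose, and 8422 and 7948 units at the higher dose. The higher-dose arrays lay at about the same level and well below all other arrays, which overlapped. The log2 change was −1.06 ± 0.18 against control (2.09-fold lower, adjusted p = 0.0305) and −1.10 ± 0.18 against the lower dose (adjusted p = 0.0259). The Usp14 call against control was lost without normalisation (−0.84, adjusted p = 0.066), with arrays scaled to equal medians (−0.92, adjusted p = 0.051) and with its probes averaged (−0.85, adjusted p = 0.0509); over 17 alternatives its adjusted p ran between 0.000716 and 0.153. A second, dimmer Usp14 probe was at −0.64 against control and was not called (adjusted p = 0.194).

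The genes listed for Wnt, TGF-beta, Hippo and other substrates had 8 measured members, all with a negative change at the higher dose, a median of −0.48 and 1 call. Of all 47 USP genes 3 were called against control, and 5.39% of named genes were called lower. Usp9x, an X-linked protease known for stabilising substrates such as MCL1 in human cells, read 830 and 624 units in control cells, 717 and 732 units at the lower dose, and 388 and 345 units at the higher dose. Both higher-dose arrays lay far below the lowest of the others. Its log2 change was −0.98 ± 0.20 against control (1.97-fold lower, adjusted p = 0.0424) and −0.99 ± 0.20 against the lower dose (adjusted p = 0.0367). Usp45, which acts on the repair nuclease subunit ERCC1 in human cells, read 1020 and 773 units in control cells, 971 and 1115 units at the lower dose, and 575 and 556 units at the higher dose. The higher-dose arrays were below all others. Usp45 fell between the doses (−0.88 ± 0.20, adjusted p = 0.0469) and was not called against control (−0.65 ± 0.20, adjusted p = 0.101). Usp34, a very large protease that acts on axin in human cells, was at −0.70 ± 0.21 against control on its brighter probe (adjusted p = 0.0972). The other measured genes of this list (Usp5, Usp35, Usp40, Usp43 and Usp46) had changes between −0.52 and −0.02, none called.

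Usp6nl is the GTPase-activating protein named above and not a deubiquitinase. It read 2008 and 1729 units in control cells, 1826 and 1776 units at the lower dose, and 1163 and 1037 units at the higher dose. The control and lower-dose arrays overlapped and the higher-dose arrays lay below them. The log2 change was −0.76 ± 0.16 against control (1.70-fold lower, adjusted p = 0.0483) and −0.71 ± 0.16 against the lower dose (adjusted p = 0.0488), both close to the threshold.

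Among the 6 genes of NF-kB and innate immune signalling, 0 were called against control and 3 fell between the doses. Of all 47 USP genes, 3 and 11 fell in these comparisons, as did 5.39% and 7.5% of named genes. By limma's unadjusted p under 0.05, 4 of the 6 were lower against control, as were 21 of all 47 USP genes. The list's median was −0.48 against control. Usp15, which removes ubiquitin from receptor-activated SMADs in human cells, read 3981 and 3970 units in control cells, 5315 and 5211 units at the lower dose, and 2493 and 2794 units at the higher dose. The 3 groups did not overlap, with the lower dose highest and the higher dose lowest. Its log2 change was −0.996 ± 0.15 between the doses (adjusted p = 0.0229), −0.59 ± 0.15 at the higher dose against control (adjusted p = 0.067) and 0.40 ± 0.15 at the lower dose against control (adjusted p = 0.764).

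Usp20, a deubiquitinase bound by the VHL ubiquitin ligase in human cells, read 2241 and 1855 units in control cells, 2329 and 2444 units at the lower dose, and 1500 and 1335 units at the higher dose. The higher-dose arrays were lowest and the lower-dose arrays highest. It fell between the doses (−0.75 ± 0.17, adjusted p = 0.0488) and was at −0.53 ± 0.17 against control (adjusted p = 0.118). Usp38, known for limiting interferon induction through the kinase TBK1 in human cells, read 349 and 305 units in control cells, 370 and 292 units at the lower dose, and 180 and 186 units at the higher dose. The control and lower-dose arrays overlapped, well above the higher-dose arrays. Usp38 fell between the doses (−0.85 ± 0.19, adjusted p = 0.0443) and just missed the threshold against control (−0.83 ± 0.19, adjusted p = 0.0516). Of the rest of the list, Usp25 and Usp31 were at −0.44 and −0.41 against control and were not called. Usp2, at −3 to 3 units as deposited, was at the floor of 1 unit or near it and has no fold.

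The list of DNA damage and p53 genes had 8 measured members and the lowest median of the lists with more than 5 genes, −0.66 against control. On 7 of the 8 both higher-dose arrays read below both control arrays, as for 35 of all 47 USP genes and 32.9% of named genes. However, 0 were called against control, where 3 of all 47 USP genes were. By limma's unadjusted p under 0.05, 5 were lower, as were 21 of the 47 USP genes and 16.5% of named genes. Usp47, which acts on DNA polymerase beta in human cells, read 915 and 1034 units in control cells, 1029 and 1141 units at the lower dose, and 580 and 667 units at the higher dose. The higher-dose arrays were below all others. It fell between the doses (−0.80 ± 0.17, adjusted p = 0.0411) and was at −0.65 ± 0.17 against control (adjusted p = 0.0729).

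Usp10, which acts on p53 and binds the stress granule protein G3BP, had the lowest change after that of Usp14, −1.01 ± 0.37, but its higher-dose arrays read 1951 and 3847 units, against 6482 and 4693 units in control cells. That gap between arrays of a group goes with its wide error and an adjusted p of 0.15. Usp1, which removes ubiquitin from FANCD2 and PCNA, was at −0.79 ± 0.25 (adjusted p = 0.113). Usp7, which acts on MDM2 and p53, was at −0.69 ± 0.20 (adjusted p = 0.0953). Usp28, which acts in the checkpoint response of human cells, was at −0.67 ± 0.17 (adjusted p = 0.0682). Usp4 and Usp24 were at −0.25 and −0.46. Usp11, a dim gene at 79 and 84 units in control cells, was at 0.07.

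Of 10 genes for histone deubiquitination and chromatin, 9 were negative at the higher dose, with a median of −0.38. Against control 0 of the 10 were called, where 3 of all 47 USP genes were. By limma's unadjusted p under 0.05, 3 were lower and 1 higher, where 21 and 1 of all 47 USP genes were. Usp42 (−0.68 ± 0.20, adjusted p = 0.0952), Usp22, the deubiquitinase of the SAGA coactivator (−0.61 ± 0.20, adjusted p = 0.119), and the nucleolar Usp36 (−0.56 ± 0.15, adjusted p = 0.0729) had the lowest values. The other 6 negative ones lay between −0.45 (Usp3) and −0.20 (Usp49). Usp51, which acts on histone H2A in human cells, was the exception and very dim: it read 6.83 and 6.00 units in control cells, 4.83 and 4.83 units at the lower dose, and 17.5 and 9.67 units at the higher dose. The higher-dose arrays were above all others. Its log2 change was 1.43 ± 0.31 between the doses (adjusted p = 0.0425) and 1.02 ± 0.31 against control (adjusted p = 0.0978). On log2(value + 16), the between-dose change of Usp51 was 0.49 and no longer called, so its size depends on how values near the floor are treated.

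The 5 genes of membranes, endosomes, the endoplasmic reticulum (ER) and mitochondria had a median of −0.35 against control, with 0 called and 0 at an unadjusted p under 0.05 by limma. Over all 47 USP genes these counts were 3 and 22. Usp19, a protease anchored in the ER membrane in one of its forms, read 4690 and 5125 units in control cells, 6666 and 6893 units at the lower dose, and 3964 and 4004 units at the higher dose. The 3 groups did not overlap, again with the lower dose highest. Usp19 fell between the doses (−0.77 ± 0.15, adjusted p = 0.0334) and was at −0.30 ± 0.15 at the higher dose against control (adjusted p = 0.25). Usp30, the mitochondrial protease that counters Parkin in human cells, and Usp8, which acts on endosomal receptors, were at −0.50 ± 0.21 and −0.35 ± 0.22 against control, neither called. Usp32 was at −0.35.

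Of 4 family members classed as lacking protease activity, 3 were negative at the higher dose against control, with a median of −0.35. There, 0 were called, where 3 of all 47 USP genes were. By limma's unadjusted p under 0.05, 2 of the 4 passed, where 22 of the 47 did. Between the doses 2 of the 4 fell, where 11 of all 47 USP genes and 7.5% of named genes did. Usp39, a component of the splicing machinery, read 7494 and 8354 units in control cells, 8654 and 7543 units at the lower dose, and 4895 and 4664 units at the higher dose. The control and lower-dose arrays overlapped, and the higher-dose arrays lay below them. Usp39 fell between the doses (−0.76 ± 0.16, adjusted p = 0.042) and narrowly missed the threshold against control (−0.73 ± 0.16, adjusted p = 0.0513). Usp53, a tight junction protein needed for hearing in mice, read 578 and 625 units in control cells, 760 and 911 units at the lower dose, and 426 and 416 units at the higher dose. The 3 groups were separate, the lower dose on top. It fell between the doses (−0.98 ± 0.17, adjusted p = 0.0266) and was at −0.51 ± 0.17 at the higher dose against control (adjusted p = 0.113). Usp54 was at −0.19 against control, and Usp50, at 9 to 32 units as deposited, at 0.09.

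Positive changes at the higher dose were few and small outside the dimmest genes. Usp29, a gene listed for the germline and imprinted in mice, read 281 and 285 units in control cells, 258 and 369 units at the lower dose, and 329 and 352 units at the higher dose. Both higher-dose arrays lay above both control arrays but inside the spread of the lower-dose arrays. Its log2 change against control was 0.27 ± 0.21 (adjusted p = 0.47). The listed cell cycle genes Usp37, which acts on cyclin A in human cells, and Usp13 were at 0.08 ± 0.21 and 0.50 ± 0.92, and Usp13 read as low as 6.83 units on 1 control array. Usp33, which acts at membranes, was at 0.16 ± 0.30. The germline gene Usp26 was at −0.37 ± 0.33.

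Second probes mostly had the sign of the first. Usp34 was the exception in size: its dimmer probe read 74.7 and 64.3 units in control cells, 102 and 67.8 units at the lower dose, and 11.8 and 24.8 units at the higher dose, a log2 change of −2.02 against control (adjusted p = 0.043), where the brighter probe was not called. Usp37 disagreed in sign, with 0.08 on the brighter probe and −0.63 on the dimmer one, neither called. The dimmer probe of Usp6nl was at −0.49 against control (adjusted p = 0.109) and fell between the doses (adjusted p = 0.0415). The second probes of Usp7 and Usp19 and both further probes of Usp31 were negative and not called.

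At the lower dose the changes lay around 0. Of the 47 genes, 25 had a positive and 22 a negative change against control, with a median of 0.01, and 0 were called in either direction by limma, where 3 of 47 had an unadjusted p under 0.05, close to the 5.73% of all named genes. Those were Usp53 (0.47 ± 0.17), Usp19 (0.47 ± 0.15) and Usp15 (0.40 ± 0.15), each with an adjusted p of 0.764. Among all named genes, 0.0113% were called higher and 0.00564% lower, so calls were almost absent throughout. On both lower-dose arrays 6 USP genes read below both control arrays, against 16.4% of named genes, 6 read above, against 18.5%, and 35 overlapped.

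Promoter sequence was compared over the 36 USP genes with a window in the RefSeq promoter table of mouse build GRCm38.p6, 37 windows of 300 bases, each running from 250 bases before the gene's start to 50 bases after it. The windows were rich in G and C, with a median of 65.0%, against 52.7% over all 32851 windows. The GC box GGGCGG, the core of Sp1-type sites, was searched on both strands together with the CCAAT box, the E-box (CACGTG), the cAMP response element (TGACGTCA), the ETS motif (CCGGAAGT) and the TATA box (TATAAA). It occurred in 27 of 37 USP windows (73.0%), against 35.7% of all windows; the part of base composition in this was not tested. The CCAAT box stood in 24.3% of USP windows, against 37.4% of all. The E-box stood in 13.5% of USP windows against 7.15% of all, the cAMP response element in 2.70% against 1.79%, the ETS motif in 10.8% against 3.89%, and the TATA box in 5.41% against 13.6%. Of the 11 genes that fell in any comparison 7 had a window, while Usp14, Usp9x, Usp39 and Usp53 had none. All 8 windows of the 7 genes held the GC box, and 2 of these windows belong to Usp6nl. The CCAAT box, E-box, ETS motif and TATA box each stood in 1 of the 8, and the cAMP response element in 0. The window of Usp51, which was higher, also held the GC box. These are matches of letters and not binding sites. Usp6nl has 2 windows in the table, of which the other one, less rich in G and C, held 1 GC box and 0 E-boxes. Shown are the more GC-rich window of Usp6nl, called against both other groups, Usp38, which fell between the doses, and Usp51 as the contrast, with motif matches in capitals (CCGCCC is the GC box read on the other strand).
Usp6nl, chr2:6322507-6322806, plus strand: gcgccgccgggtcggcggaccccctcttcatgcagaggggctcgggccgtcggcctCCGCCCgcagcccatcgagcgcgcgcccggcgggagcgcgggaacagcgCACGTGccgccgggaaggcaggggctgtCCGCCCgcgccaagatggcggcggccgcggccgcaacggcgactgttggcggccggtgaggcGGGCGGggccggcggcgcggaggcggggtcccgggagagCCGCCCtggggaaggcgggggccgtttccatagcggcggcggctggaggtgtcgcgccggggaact
Usp38, chr8:81014857-81015156, minus strand: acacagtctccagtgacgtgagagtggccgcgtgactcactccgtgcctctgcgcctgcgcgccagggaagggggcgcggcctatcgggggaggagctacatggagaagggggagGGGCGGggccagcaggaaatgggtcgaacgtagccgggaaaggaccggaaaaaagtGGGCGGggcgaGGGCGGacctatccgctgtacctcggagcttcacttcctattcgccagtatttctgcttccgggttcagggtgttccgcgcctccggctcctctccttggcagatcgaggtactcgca
Usp51, chrX:153006219-153006518, plus strand: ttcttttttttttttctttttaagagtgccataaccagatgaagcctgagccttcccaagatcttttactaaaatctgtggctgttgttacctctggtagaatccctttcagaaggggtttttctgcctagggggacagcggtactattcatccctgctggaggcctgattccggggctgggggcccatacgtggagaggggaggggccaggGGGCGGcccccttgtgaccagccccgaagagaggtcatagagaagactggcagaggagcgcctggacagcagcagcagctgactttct
The capitals show 4 GC boxes and 1 E-box in the Usp6nl window shown, 3 GC boxes in that of Usp38 and 1 in that of Usp51.

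The genes listed as other deubiquitinases had a median change near 0, but their classes had medians on both sides of 0. Of 42 listed genes 37 were measured. They include Uspl1 and Pan2, which are not ubiquitin proteases and are described below. At the higher dose against control 2 of the 37 rose and 5 fell, where 6.37% of named genes were called higher and 5.39% lower. Of the 47 USP genes, 0 rose and 3 fell, so by calls the USP genes did not fall more often. The median log2 change of the 37 was −0.05, against −0.44 for the USP genes. The 2 that rose were Uchl1, a small hydrolase best known from neurons (1.55 ± 0.29, adjusted p = 0.0358), and Josd2, of the Josephin class (1.32 ± 0.19, adjusted p = 0.0237). Uchl1 gave 11037 and 14668 units on the higher-dose arrays, against 3585 and 5292 units in control cells, with no overlap.

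The genes that fell included Otud1 (−0.94 ± 0.16, adjusted p = 0.0293) and Zranb1 (−0.88 ± 0.16, adjusted p = 0.0335), both of the OTU class. Zup1, of the ZUFSP class, had a log2 change of −1.93 ± 0.25 (adjusted p = 0.0215) and was dim, at 4.17 and 3.67 units at the higher dose, against 13.5 and 16.3 units in control cells. Both measured genes that share the USP fold without the name fell: Uspl1, a protease for the related modifier SUMO (−1.05 ± 0.17, adjusted p = 0.0279), and Pan2, a subunit of a poly(A) nuclease without protease activity (−0.998 ± 0.15, adjusted p = 0.026).

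By class, the median was 0.17 over the 10 measured genes listed for the JAMM class, −0.26 over 14 OTU genes and −0.05 over 3 UCH genes. It was −0.48 over 3 Josephin genes, 0.02 over 5 MINDY and ZUFSP genes and −1.02 over the 2 genes with the USP fold. Among the JAMM genes, the signalosome subunit Cops6 (0.84 ± 0.22, adjusted p = 0.0772) and Mpnd (0.63 ± 0.19, adjusted p = 0.0993) had the smallest p, and 0 were called by limma, with 2 at an unadjusted p under 0.05. The other genes with the smallest p in their class were Bap1 of the UCH class (−0.30 ± 0.14), Josd1 of the Josephin class (−0.60 ± 0.20) and Mindy4 (0.91 ± 0.20, adjusted p = 0.0504), none called. A second Mindy4 probe was at −0.27. The Josephin median is the value of Atxn3, at −0.48 on its brighter probe and 0.24 on a second one, neither called.

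**Figure D3:**
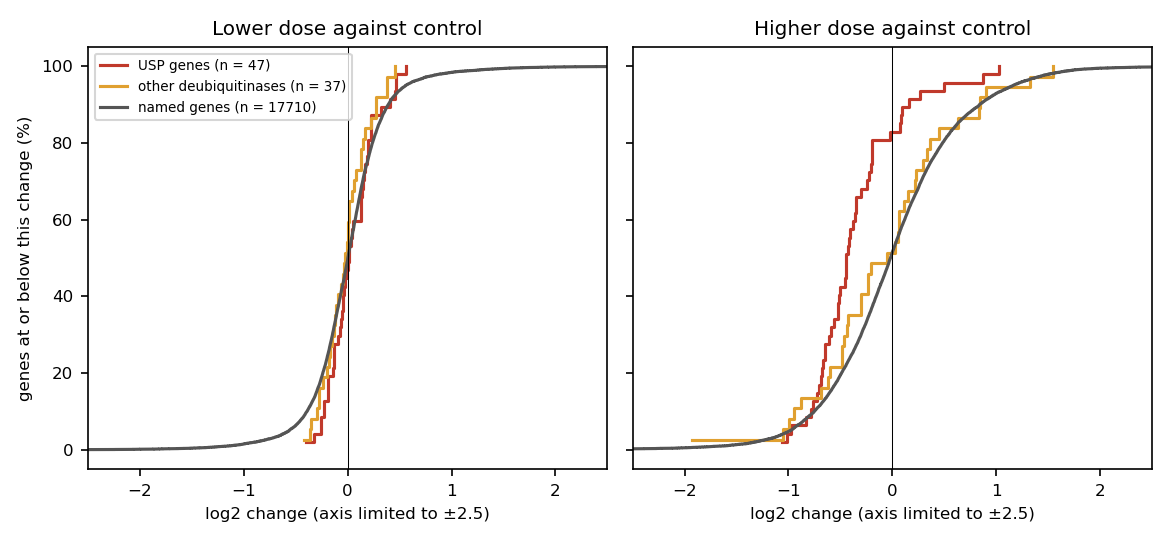
Cumulative share of genes (%) by log2 change for the 47 USP genes, 37 genes listed as other deubiquitinases and all named genes with a gene span. Lower dose against control is on the left and higher dose against control on the right. The curve of the USP genes lies to the left of the other curves through most of the higher-dose panel, and near them in the lower-dose panel. At the higher dose the USP median is −0.44, against −0.05 for the 37 listed genes.

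Of 6 genes that supply or activate ubiquitin only Uba6, an E1 activating enzyme, was measured, and it fell at the higher dose against control (−1.05 ± 0.23, adjusted p = 0.0492). Of 17 listed partners of USP proteins 14 were measured, with a median of −0.37, 6 positive and 8 negative. Of these, 1 was called lower and 0 higher, against 5.39% and 6.37% of named genes. The gene called lower was G3bp2, a paralogue of the Usp10 partner G3bp1, with 3634 and 3469 units on the higher-dose arrays, against 11350 and 12594 units in control cells. Both higher-dose arrays lay far below both control arrays. The log2 change was −1.75 ± 0.20 (adjusted p = 0.0199), but a second G3bp2 probe was at −0.42 (adjusted p = 0.245). G3bp1 itself was at 0.50 ± 0.15 (adjusted p = 0.104), with 15029 and 14432 units on the higher-dose arrays, both above the 11166 and 9658 units of the control arrays. Wdr20, an activating subunit of Usp12 and Usp46, had the next smallest p (−0.58 ± 0.15, adjusted p = 0.0689). Dimmer second probes of Atxn7 (−1.46, adjusted p = 0.0204) and of Wdr48 (−0.999, adjusted p = 0.0367) were called lower, where the brighter probes were not.

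Gene span and intensity moved with the higher-dose change, and their part in it was not tested beyond the values given here. The USP genes span a median of 49.4 kb of the genome, against 19.3 kb over 17710 named genes with a span. Over all named genes the change fell with span, with a Spearman rho of −0.20, and of −0.33 over the 10269 above the median probe; at the lower dose rho was 0.04. Within the 47 USP genes rho with span was −0.10, and rho with mean intensity was −0.58, against −0.07 over all named genes. These are descriptions across genes measured on the same 6 arrays, and genes are not independent replicates. In 5 span classes of equal size, the medians over all named genes were 0.14, 0.07, −0.03, −0.15 and −0.14 from the shortest to the longest. The 2, 3, 7, 16 and 19 USP genes in these classes had medians of 0.31, −0.36, −0.44, −0.44 and −0.45. Only the shortest class had a positive one, and its 2 genes differed in sign: Usp27x was at −0.41 and the very dim Usp51 at 1.02. With each array's trend with span removed, the median of the USP genes was −0.34, against −0.01 over all named genes, and 2 of the 3 genes called against control, Usp14 and Usp9x, were called.

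**Figure D4:**
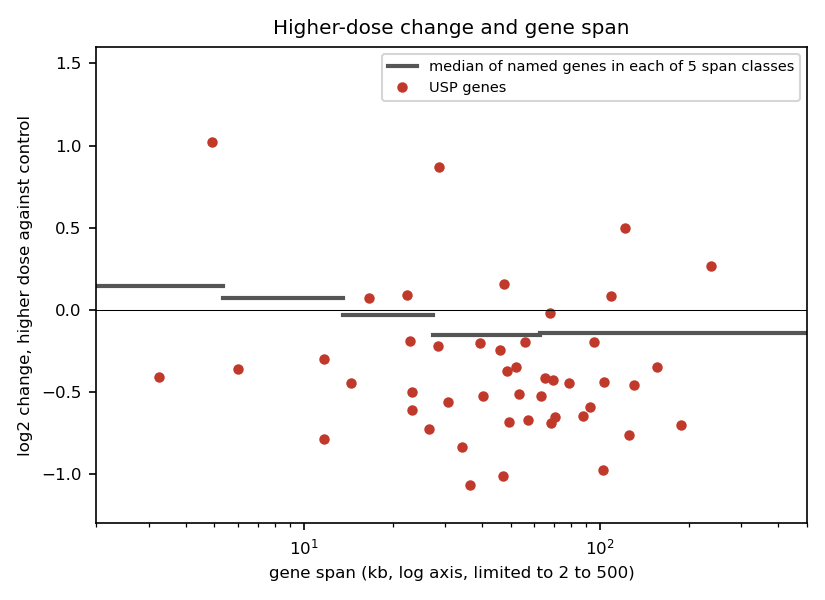
Log2 change at the higher dose against control for each USP gene (points) by gene span in kb on a log axis, with the median of all named genes in each of 5 span classes of equal size (lines). Most USP genes lie below the line of their class, whose medians run between −0.15 and 0.14.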

How the data were processed

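Total RNA from BV2 cells was converted to Cy5-labelled cDNA and measured on single-colour Phalanx mouse OneArrays, as stated in the labels. What the authors deposited is spot intensity on a linear scale, from −21 to 65489 units. The submitters' notes on processing name RMA, a method whose output is on a log scale with equal distributions; since the deposited values are linear and their medians differ, they were treated as not normalised between arrays. Scanner, background correction, detection flags and slides are not stated in the labels or files.

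Arrays were quantile-normalised, values then under 1 set to 1, and log2 taken; as deposited, 196 to 315 probes per array lay under 1. All 6 arrays were fitted together with limma 3.58.1 (R 4.3.3), using lmFit and eBayes with a mean for each group and 3 residual degrees of freedom; tests were two-sided, with Benjamini-Hochberg adjustment over 26423 probes and a threshold of 0.05. The code was first tested on simulated data. Figures used Python 3.11.15 and matplotlib 3.10.9. Platform symbols, given for 20377 probes and absent for 6046, were updated through a RefSeq table of build GRCm38.p6 by exact match (18213) or synonym (2126), and 38 were kept as given.

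Members, gene lists and tests were chosen with earlier results of these data known. Every USP gene past the threshold in any of 3 comparisons was named with its array values, rises were filled up to 6 by smallest p, and each list gave its 2 genes with the smallest p. Lists covered USP roles, other deubiquitinases, ubiquitin supply, partners and cell type markers. Usp9y, Usp12 and Usp48 were listed and are not analysed here. Alternatives are given with the sensitivity of the results.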

Additional observations from a re-analysis of the deposited data

How the results depend on the processing

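The count of USP genes called at the higher dose against control was 3 as reported, where 5.39% of named genes were called lower. That share moved with the setting and is given in brackets after each count. The count was 19 of 39 (22.6%) with only probes above the median tested, 16 (11.4%) with a trended prior and 14 (10.3%) on log2(value + 16). It was 6 (7.64%) with each gene's probes averaged, 5 (7.65%) with array weights and 4 (7.08%) with equal medians. Without normalisation it was 2 (3.57%), and with only the groups compared 1 (2.41%). At a threshold of 0.1 it was 13, of which 12 were lower (11%), and at 0.01 it was 0 (0.0282%). Between the doses the count was 12 as reported, of which 11 were lower (7.5% of named genes). It was 22 of 39 (24.4%) with only brighter probes, 0 (0.0169%) with only the groups compared and 0 (0.0169%) at 0.01. With 1 array left out, few or no USP calls held in either comparison, and fewer named genes were called too. The median change against control, −0.44, was −0.52 without normalisation, −0.59 with equal medians, −0.50 for brighter probes and −0.34 with the span trend removed. The medians over all named genes were then −0.006, −0.08, −0.05 and −0.01. With 1 array left out, the USP median ran between −0.46 and −0.40. Between the doses, −0.45 as reported, it was −0.72, −0.54, −0.51 and −0.31 under the same 4 settings, and −0.50 to −0.44 with 1 array left out. Over all named genes the between-dose medians under these 4 settings were −0.24, −0.06, −0.03 and 0.005. The −0.72 without normalisation thus includes a shift of all genes: the USP median minus that of all named genes was −0.48, against −0.44 as reported. At the lower dose, 0.01 as reported, it was 0.20 without normalisation, where all genes shifted by 0.22, −0.0568 with equal medians, and −0.0227 to 0.0455 with 1 array left out; 0 genes were called under every alternative. No setting reversed a called direction. With the replicate number as a replicate block, 0 USP genes were called in any comparison. In that fit 0.0225% of named genes were called lower at the higher dose against control, and 2.47% between the doses. Same-numbered deviations correlated at 0.31 (higher dose and control), 0.03 (lower dose and control) and −0.23 (both doses). Since not all were above 0.1, the numbers were not taken to pair the arrays. Whether they do is not known. A crossed pairing, chosen after seeing the data, gave 2 calls against control and 7 between the doses, all lower. With it, 4.35% and 7.16% of named genes were called lower. The causes of these changes were not tested, beyond there being fewer probes or arrays in some settings. Values near the floor limit the dimmest genes.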
